A study of Arabidopsis thaliana with 3 samples.

Results

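FRI, FRL1, SUF4, FES1 and FLX encode proteins of the FRIGIDA complex, and PIE1, ARP6 and SEF encode subunits of the SWR1 chromatin remodelling complex. They were looked up in the peak summits of FLAG-tagged JMJ28 across the genome. A gene was counted as having a site when a nuclear summit, the highest point of a called peak, lay inside the gene or within 1000 bp of either end. The genes were found by symbol or synonym in an NCBI gene table of the TAIR10.1 assembly. Of the 8 listed genes, 7 were found, out of 27444 nuclear protein-coding genes in all. The table had no row of the name FLX, so FLX was not analysed here. The 7 genes had 10 of the 18368 nuclear summits.

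The summits came from chromatin immunoprecipitation and sequencing (ChIP-seq) of Arabidopsis thaliana Col-0 seedlings with JMJ28, a JmjC-domain protein of the H3K9 demethylase family, fused to 3xFLAG and driven by the JMJ28 promoter. The seedlings were 14 days old and grown in long days at 22 °C. The ChIP group had 2 libraries and the input group 1, all of the same genotype. The sources used here do not say whether the endogenous JMJ28 gene was intact or how many transgenic lines were grown. Untagged plants were not analysed here, so sites of JMJ28 and background recovery by the antibody cannot be told apart. The values came from 1 deposited list for the whole series, so depth per library is unknown and no spread between replicates could be computed. Each statement below is a description of that list, and no difference was tested.

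The FRIGIDA complex raises transcription of FLC, the MADS-box gene that represses flowering until winter cold silences it. FRI is its scaffold, and SUF4 brings it to the FLC promoter through zinc fingers that bind DNA. SWR1 replaces histone H2A with the variant H2A.Z in nucleosomes, and loss of PIE1, ARP6 or SEF lowers FLC expression and brings early flowering. Col-0 carries a natural loss-of-function allele of FRI, so the complex is less active at FLC in these plants than in late-flowering accessions with an active FRI.

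JMJ28 summits were found at 6 of the 7 genes, and SEF was the gene without one. The share was 85.7% (exact 95% binomial interval 42.1 to 99.6, counting error only), where 65.4% of all protein-coding genes had a summit, a value inside that interval. The share also varied with gene length. In the length deciles of PIE1, SUF4, FES1, FRI and ARP6 it was 83%, 79.3%, 77.9%, 75.4% and 69.4%. In those of FRL1 and SEF it was 63.3% and 44.2%. The scores separated the genes more than their presence did. FRL1 and PIE1 had scores of 109.7 and 57.3, while the highest scores at SUF4, FRI, ARP6 and FES1 lay between 9.97 and 13.2. The score is the authors' own value for each summit. As MACS2 writes such lists, it is the −log10 of a p-value or q-value, a strength of evidence and not an amount of bound protein. Over all nuclear summits the median was 9.07 (interquartile range 5.1 to 18.4). Of the 10 summits at the 7 genes, 7 were above that median and 3 were in the upper 25% of scores.

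**Figure D1:**
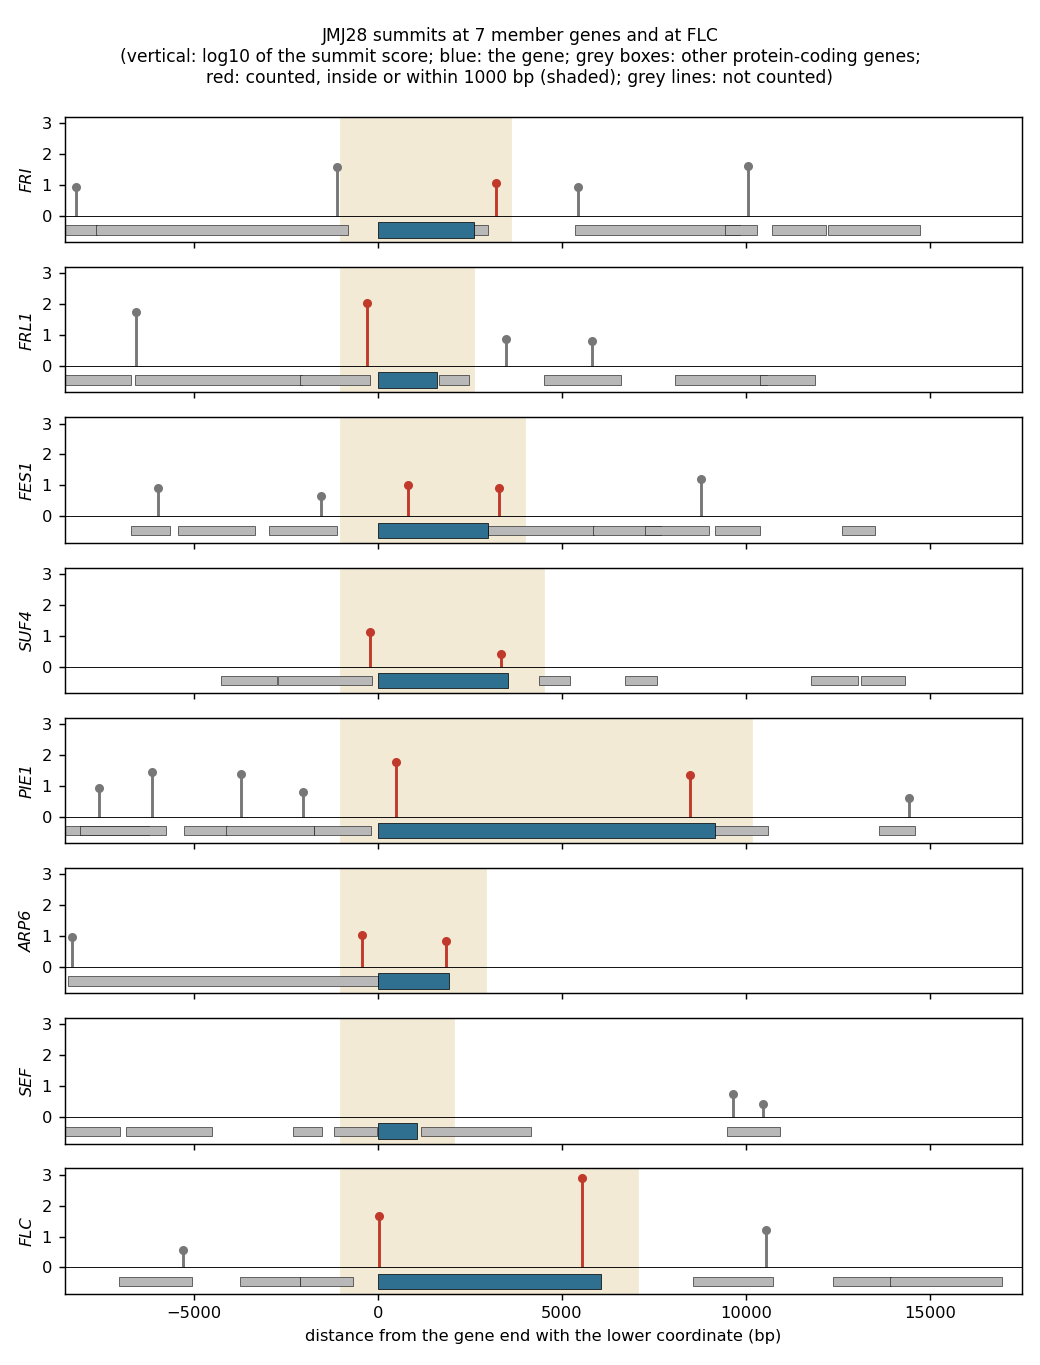
Summits at FRI, FRL1, FES1, SUF4, PIE1, ARP6, SEF and FLC, with 1 panel per gene. The horizontal axis is the distance in bp from the gene end with the lower coordinate, the vertical axis is the log10 of the authors' score, blue boxes are the named genes, grey boxes are other protein-coding genes, and red lines are summits inside or within 1000 bp of the gene (shaded). FRL1 and PIE1 have the highest lines among the 7 genes, SEF has no red line, and FLC exceeds them with 762.

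FRI had 1 summit, and it was outside the gene. It lay at position 272104 of chromosome 4 (TAIR10, counted from 1), 601 bp beyond the gene end with the higher coordinate, and scored 11.6. Of the nuclear summits, 59.9% had this score or a lower one. The same summit was 225 bp outside AT4G00651, a short gene of 393 bp whose extent overlaps FRI by 17 bp and which is therefore nearer to it. On the other side, a stronger summit (position 267785, score 36.9) lay 1116 bp from FRI, just outside the window. That was the highest score counted for KEA2, a potassium antiporter gene. No summit was found within the 2603 bp of FRI itself.

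FRL1, a relative of FRI that is needed for its full effect on FLC, had the highest score of the 7 genes. Its single summit lay at position 5344211 of chromosome 5 and scored 109.7, at or above 98.7% of nuclear summits. It lay 284 bp outside FRL1, on the side of the lower coordinate. That position is inside UCH1, a ubiquitin C-terminal hydrolase gene, 74 bp from its nearer end. The gap between the 2 genes is 209 bp, and without strand or reads the summit cannot be given to one of them. It was the highest of the 4 summits in or within 10 kb of FRL1, where the others scored 57.3, 7.36 and 6.32. AT5G16330, the next gene on the other side, had no summit.

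SUF4 had a summit at each end. The stronger one, at position 11040029 of chromosome 1, scored 13.2 and lay 221 bp outside SUF4, inside AT1G30960 and 55 bp from the end of that gene. The other, at position 11043598, was inside SUF4, 175 bp from the opposite end, and scored 2.46. This was the lowest score at any of the 7 genes, with 3.68% of nuclear summits equal or lower. No other summit was found within 10 kb of SUF4.

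FES1, which encodes a CCCH zinc finger protein of the complex, also had 2 summits, of nearly equal score. One was inside the gene at position 14312529 of chromosome 2, 817 bp from the nearer end, with a score of 9.97. It lay farther from a gene end than most summits inside genes, for which the distance to the nearer end had a median of 296 bp (interquartile range 167 to 507 bp over 16560 pairs of a gene and a summit inside it). Those pairs include genes of all lengths, and shorter genes than FES1 (3003 bp) leave less room for such a distance. The other summit of FES1, at position 14315014, scored 8.48 and lay 300 bp outside FES1 and inside AT2G33840, which overlaps FES1 by 5 bp. Both were close to the nuclear median. The highest score within 10 kb was that of a summit 5781 bp away (15.7).

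PIE1, the ATPase that drives the SWR1 exchange reaction, was the member with 2 summits inside the gene. The stronger, at position 4065538 of chromosome 3, scored 57.3, at or above 95.3% of nuclear summits, and lay 496 bp from the gene end with the lower coordinate. The weaker, at position 4073525, scored 22.5 (80.8% of nuclear summits) and lay 669 bp from the opposite end. They were 7987 bp apart, at 5.42% and 92.7% of the gene's length of 9153 bp, and no summit was called between them. The first was 679 bp outside SDRB. The second was 330 bp outside MYB10, a gene of the R2R3-MYB family that overlaps PIE1 by 340 bp. Long genes had summits more often: in PIE1's length decile 83% of 2745 genes had one, with a mean of 1.54 summits per gene.

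ARP6, the actin-related protein of SWR1, had a summit near each end, with scores close to the nuclear median. The one at position 14095519 of chromosome 3 was inside ARP6, 69 bp from its end, and scored 6.84. The one at position 14093215 scored 11.2 and lay 441 bp outside ARP6, inside AT3G33530, a gene of 8423 bp that overlaps ARP6 by 15 bp. ARP6 lies in a region with few genes. The next protein-coding gene on the side of the higher coordinate starts after a gap of 99858 bp. In the 500 kb around ARP6, 4 of 20 protein-coding genes (20%) had a summit: ARP6, AT3G33530, AT3G42050 (18.8) and DAYSLEEPER (9.67), which encodes a transposase-like protein.

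SEF, also known as SWC6, encodes a zinc finger HIT protein that binds ARP6 and PIE1. It had no summit, and the nearest ones lay 8574 and 9391 bp away, at positions 14651087 (score 5.82) and 14651904 (2.63) of chromosome 5. Both adjacent genes, AT5G37050 and CHX24, a cation exchanger gene, also had no summit. At 1072 bp, SEF is the shortest of the 7 genes, and 44.2% of 2744 genes in its length decile had a summit. In the 500 kb around SEF, 24 of 85 protein-coding genes (28.2%) had one. Whether reads could be placed there as well as elsewhere was not tested. A site too weak to pass the authors' threshold, whose value the sources used here do not give, cannot be told apart from no site.

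The surroundings of the 7 genes fell into a low and a high range. In windows of 500 kb, the share of protein-coding genes with a summit was 20% around ARP6 and 28.2% around SEF, and between 63.5% (SUF4) and 84.3% (PIE1) around the other 5. FRI (71.4%), FES1 (77.9%) and FRL1 (78.9%) lay between these values. ARP6 had its summits where most genes of the window had none, and SEF lacked one where most genes of the window also lacked one.

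**Figure D2:**
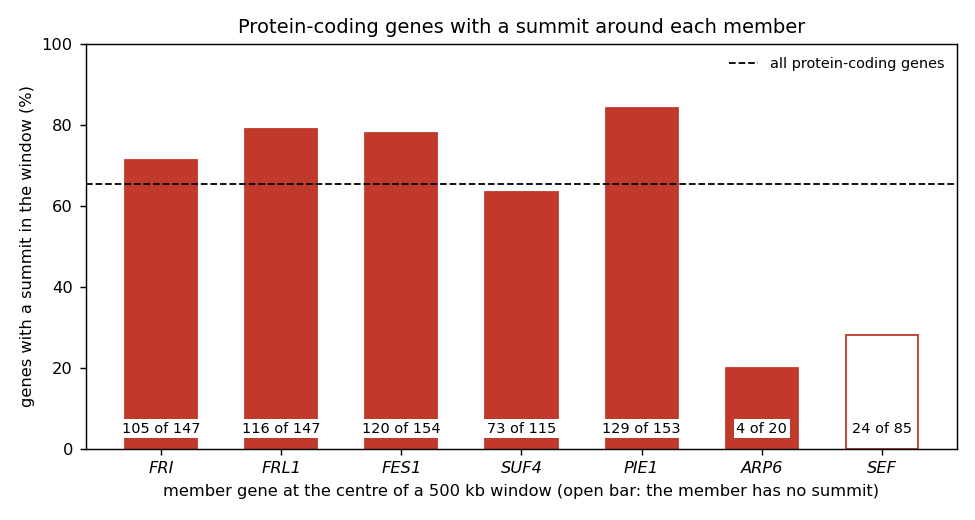
Share of protein-coding genes with a JMJ28 summit in the 500 kb centred on each of the 7 genes, in percent, with the numbers of genes in each bar. The dashed line is the share of all protein-coding genes (65.4%), and the open bar is SEF, which has no summit. The bars of ARP6 (20%) and SEF (28.2%) are far below the line, and SUF4 (63.5%) lies near it.

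The summits were as often beside the 7 genes as within them. Of the 10 summits, 5 were inside a member (2 in PIE1 and 1 each in FES1, SUF4 and ARP6) and 5 were in the flanks. Over all protein-coding genes, 58.9% of 28125 pairs of a gene and a summit had the summit inside the gene. Of the 5 flank summits, 4 were inside another protein-coding gene, and the exception was that of FRI. Over all protein-coding genes, 75.3% of 11565 such flank pairs had the summit inside another gene. In all, 7 of the 10 summits also counted for a neighbouring gene, as did the summit in 69.5% of all 28125 pairs, so this sharing was common in the genome. FRI and FRL1 had no summit of their own inside the gene, as did 27% of all genes with a summit.

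With 2 summits each, SUF4, FES1, PIE1 and ARP6 shared an arrangement with 1 summit on either side of the gene's midpoint. This was also the usual arrangement in the genome, found at 5492 of 6438 protein-coding genes (85.3%) with exactly 2 summits. The summits of PIE1 were 7987 bp apart, those of SUF4 3569 bp, those of FES1 2485 bp and those of ARP6 2304 bp, and the median over all such genes was 2260 bp. In all, 4 of the 7 genes had 2 summits, and 29.8% of protein-coding genes had 2 or more. These shares were not matched for gene length. The mean number of summits per gene was 1.02 over all protein-coding genes. In the length deciles of PIE1, SUF4, FES1 and ARP6 it was 1.54, 1.38, 1.31 and 1.04. The table gives no strand, so a gene's start could not be told from its end.

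The count of genes with a summit depended on the rule. With summits inside the gene only, 4 of 7 genes were counted (57.1%, exact 95% interval 18.4 to 90.1), where 47.7% of protein-coding genes were. With flanks of 500 bp it was 5 of 7 (71.4%), where the share of all genes was 59.2%, since FRI dropped out. With flanks of 2000 bp it was 6 of 7 (85.7%), where the share was 73.3%. With each summit given to its nearest gene it was 4 of 7 (57.1%), without FRI and FRL1, where the share was 51.3%. With the upper 50% of scores, 6 of 7 genes still had a summit (85.7%, interval 42.1 to 99.6), where 43.8% of all genes did, a value inside that interval. The highest scores of SUF4, FRI, ARP6 and FES1, 9.97 to 13.2, were just above the cut at the nuclear median of 9.07. With the upper 25% it was 2 of 7 (28.6%), FRL1 and PIE1, where the share was 25.4%.

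**Figure D3:**
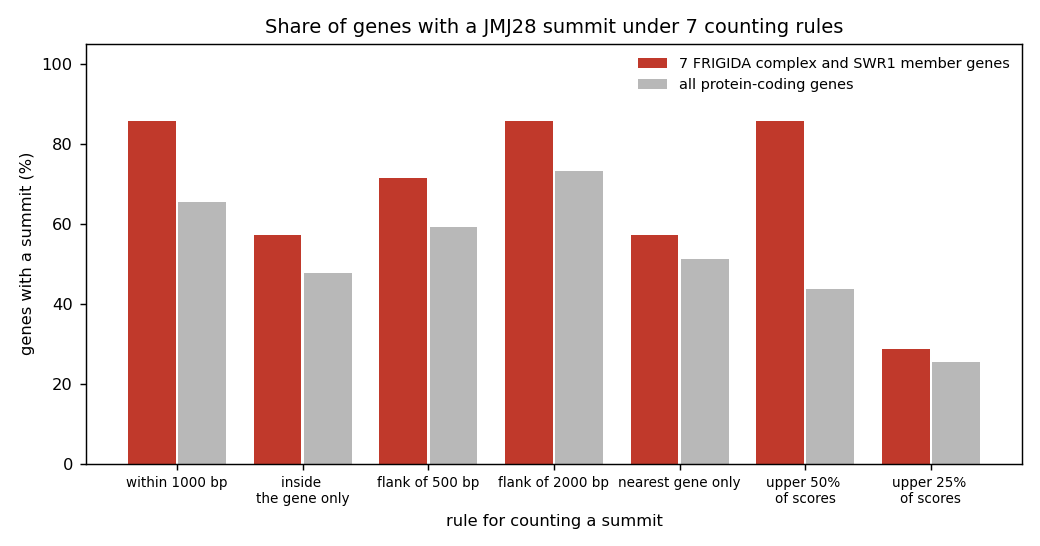
Share of genes with a JMJ28 summit, in percent, for the 7 FRIGIDA complex and SWR1 genes (red) and all 27444 protein-coding genes (grey) under 7 ways of counting. The red bars are higher under each rule, and the gap is widest with the upper 50% of scores (85.7% and 43.8%). The exact interval of that 85.7% is 42.1 to 99.6, which holds the 43.8%. At FRI, FRL1, SUF4 and ARP6 the summit that passes this cut lies outside the gene. The 7 rules count overlapping sets of summits at the same genes, so they are not separate evidence. Gene length was not matched, and no difference was tested.

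By the highest score per gene within 1000 bp, 4 of the 7 genes were in the middle range. FRL1 and PIE1 were near the top, and SEF had no score. The score of FRL1 came from a summit inside UCH1, and those of SUF4 and ARP6 from summits inside AT1G30960 and AT3G33530. With summits inside the gene only, SUF4 had 2.46, ARP6 had 6.84, and FRL1 and FRI had none. By the 1000 bp rule, with genes without a summit placed at the bottom, the median over the 7 genes was 11.6. That over all protein-coding genes was 7.11, and gene length was not matched. Among the 17953 protein-coding genes with a summit, FRL1 was equal to or above 97.8% and PIE1 equal to or above 92.1%. SUF4 (49%) was just under the middle of that order, and FRI (43.5%), ARP6 (42.2%) and FES1 (37.7%) were lower. With no replicate values, the order of these 4 neighbouring scores was not tested.

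FLC, the gene on which these proteins act, had 1 score above all of those at the 7 genes. Both of its 2 summits were intragenic. One, at position 3178918 of chromosome 5, scored 762, and the other, at position 3173421, scored 45.3. The stronger was at or above 99.97% of nuclear summits. The weaker exceeded 8 of the 10 summits of the members and fell below the summits of FRL1 (109.7) and PIE1 (57.3). As at PIE1, the summits lay near opposite ends, 530 and 39 bp inside the gene.

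Further genes of the pathway were looked up by the same rule. Of the relatives of FRI and FLX, 2 of 5 listed genes were found in the table. Both had a summit: FLXL4 (33.9, inside the gene), listed there as FLX LIKE 4, and FRL2 (8.77, outside the gene), a close relative of FRL1. FRL2 also had a summit inside the gene. The highest score at FRL2 was thus below the nuclear median, where that at FRL1 was among the highest. The summit counted for FRL1 lies inside UCH1, however, and FRL1 has none inside the gene.

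Of the other SWR1 subunits and the H2A.Z histone genes, 9 of 13 were found, and 6 of these had a summit (66.7%, interval 29.9 to 92.5), close to the 65.4% of all genes. The highest scores were at ARP4 (35.9), the actin-related protein that SWR1 shares with other complexes, and at HTA8 (22), a gene for H2A.Z. SWC2, a SWR1 subunit, and RIN1, a RuvB-like ATPase, both scored 17.6, with the summit of RIN1 outside the gene. YAF9A and YAF9B, which encode YEATS-domain proteins, and HTA11, another H2A.Z gene, had no summit. No score in this list reached that of PIE1. The median highest score, with genes without a summit at the bottom, was 9.07.

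The other activators of FLC are the Paf1 complex, which travels with RNA polymerase II, the H3K4 and H3K36 methyltransferases, the enzymes of H2B ubiquitination and the nuclear cap-binding complex. Of these 19 genes, 17 had a summit (89.5%, interval 66.9 to 98.7), and the 65.4% of all protein-coding genes lay just below that interval. Their median highest score was 13.6, and that of all protein-coding genes 7.11. With summits inside the gene it was 15 of 19 (78.9%, interval 54.4 to 93.9), where the members had 4 of 7 (57.1%) and all genes 47.7%. Gene length was not matched in these comparisons. The list ran from VIP3 (1742 bp) to EFS (9533 bp). VIP6, ATX1, ATX2, ATXR7, EFS, HUB1 and ABH1 were in the longest length decile, that of PIE1. In that decile 83% of genes had a summit. The interval of 66.9 to 98.7 is that of all 19 genes, most of them shorter, so the 83% is no reference for the whole list. In the length deciles of ARP6 (1933 bp) and FRI (2603 bp) the share was 69.4% and 75.4%. Shares by length were not computed for summits inside the gene. The highest scores were at VIP5 (34.9) and VIP3 (24.2) of the Paf1 complex, and at ATX2 (29.1, outside the gene) and ASH2R (29.1) of the H3K4 methylation machinery. EFS, the H3K36 methyltransferase, had 13.6. VIP4 and UBC2 had none. UBC1 and UBC2, like the H2A.Z genes, have close copies among which reads may be split. This was not tested, so these results are uncertain.

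Genes of the autonomous pathway, which lower FLC expression, were set beside the members as their counterpart. All 7 (FCA, FPA, FY, FVE, FLD, LD and FLK) had a summit (interval 59 to 100), where the share of all protein-coding genes was 65.4%. A summit inside the gene was found at 6 of 7 (85.7%, interval 42.1 to 99.6), where that share was 47.7%. Gene length was not matched here either, and these genes were 3472 bp (FLD) to 8385 bp (FCA) long. In the length deciles of FES1 (3003 bp), SUF4 (3524 bp) and PIE1 (9153 bp), 77.9%, 79.3% and 83% of genes had a summit. The median highest score of the autonomous pathway genes was 11.9, that of the members 11.6 and that of all protein-coding genes 7.11. The range was 3.58 (FY) to 50.3 (FPA), an RNA-binding protein gene, so that none reached PIE1 or FRL1. The scores of both lists overlapped. The difference between the lists was not tested.

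**Figure D4:**
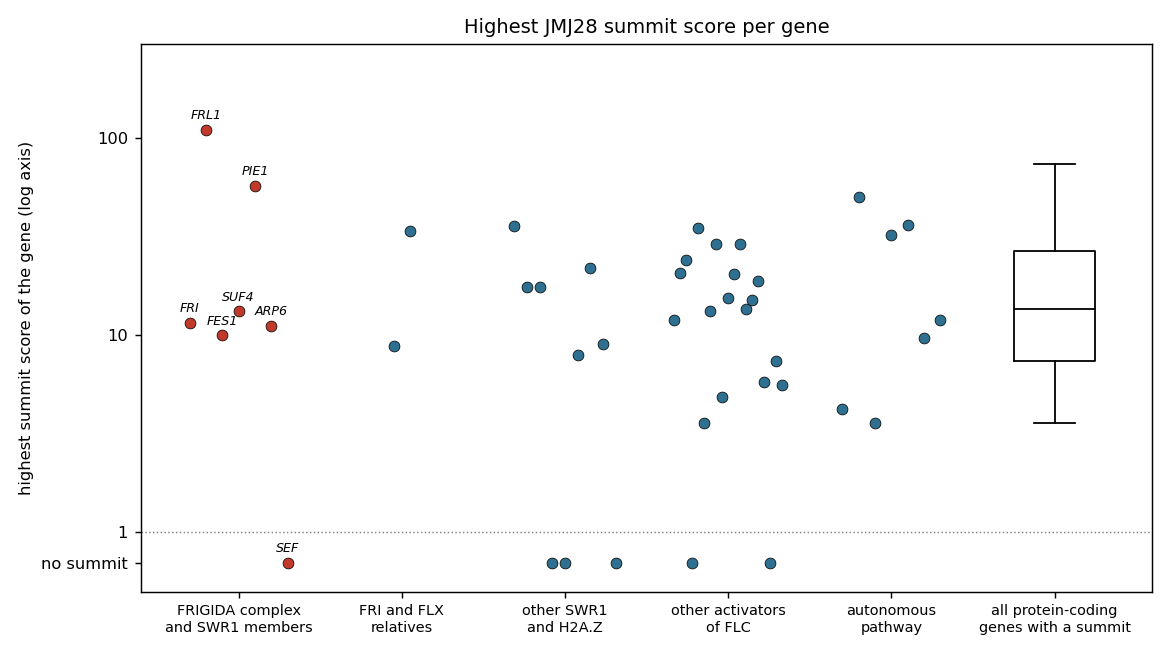
Highest summit score per gene on a log axis, for the 7 FRIGIDA complex and SWR1 genes (red), 4 lists of other genes (blue) and all 17953 protein-coding genes with a summit (box: quartiles and median, whiskers: 5th to 95th percentile). Points below the dotted line are genes without a summit. FRL1 (109.7) and PIE1 (57.3) lie above all blue points. SUF4, FRI, ARP6 and FES1 lie inside the box and below its median, and SEF is below the dotted line.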

How the data were processed

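ChIP-seq was made with 2 ChIP libraries and 1 input library of JMJ28-FLAG seedlings. Per the submitters' processing notes, Bowtie2 and MACS2 were used with the TAIR10 build. The sources used here give no versions, no peak threshold, and neither how libraries were pooled nor how the input was used. The authors deposited 1 list of 18410 summits of 1 bp, each with a score taken here as −log10 of a p-value or q-value. Of these, 42 were on the chloroplast genome and were left out. Depth is unknown. A score of this kind grows with depth.

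Gene extents came from the NCBI TAIR10.1 table. To check that both share coordinates, summits were shifted by up to 5000 bp. Without a shift 53.2% lay within 300 bp of a gene end, more than at any shift tried. The table gives no strand or exons, and no sequence was used here, so the planned promoter motifs and distances along transcripts were not analysed. Symbols were matched before synonyms, ignoring case, and FLXL4 through the table's synonym FLL4. Where 2 genes shared a symbol (ATX1, RBL), the listed locus was taken.

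The text names all listed genes with their summits, FLC, the genes that share or adjoin a member's summits, up to 4 highest scores of every other list, and its genes without a summit. EFS, the range of the autonomous pathway and the genes around ARP6 were named after their values were seen. Members and lists were chosen with earlier results of these data known, and the autonomous pathway list was added after the values were seen. Intervals are exact (Clopper-Pearson). Counting was tested on simulated data. Alternatives were other flanks, the nearest gene, and higher scores. Software was SciPy 1.17.1, pandas 2.3.3 and numpy 2.4.6 under Python 3.11.15, with figures drawn by matplotlib 3.10.9.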

Additional observations from a re-analysis of the deposited data

How the results depend on the processing

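No paired analysis was possible because the list has no value per library. The count of 6 members with a summit stayed within 1.5 times under 5 of 6 alternatives (4 to 6 genes), and fell to 2 with the upper 25% of scores. At that setting 25.4% of all protein-coding genes had a summit. So did 2 of the 9 other SWR1 and H2A.Z genes (22.2%) and 7 of the 19 other activators of FLC (36.8%). It was also 3 of the 7 autonomous pathway genes (42.9%, alternatives chosen after seeing the data) and 1 of the 2 relatives of FRI and FLX. With the upper 50%, 1 of these 2 relatives had a summit, where 43.8% of all protein-coding genes did. Fewer summits enter these counts by construction. The highest score at FRI was 36.9 with flanks of 2000 bp, from a summit also counted for KEA2. That at SUF4 was 2.46, and that at ARP6 6.84, with summits inside the gene or the nearest gene only. Those at FRL1, FES1 and PIE1 did not change wherever a summit was counted.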

Other observations

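Scores were shared among many summits. The 18368 nuclear summits had 748 distinct scores. The 57.3 of PIE1 was also the score of a summit 6566 bp from FRL1 and occurred at 17 nuclear summits in all. The 8.48 of the FES1 flank summit occurred at 256, among them another near FES1, 1 within 10 kb of PIE1 and 2 within 10 kb of FRI. Both scores of FLC occurred once. Equal scores at different genes are therefore common in this list, and small differences in score between genes rest on few steps of the scale.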
